A study of Homo sapiens with 32 samples.

Results

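Accessible chromatin was measured at the starts of 10 nuclear genes that maintain and transcribe mitochondrial DNA: TFAM, TFB1M, TFB2M, POLRMT, TEFM, TWNK, POLG, POLG2, SSBP1 and MTERF1. Members were the windows of the deposited count table, each 401 bp long, whose centre was no more than 500 bp from any start that GENCODE release 44 annotates on hg38 for 1 of these genes. The rule found 23 of 212358 windows and used no measured value. Of the 23, 21 windows of 9 genes held counts and entered the test, while both windows of SSBP1 were at 0 in every library.

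The assay was ATAC-seq, which reads open chromatin through the places where Tn5 transposase cuts and tags DNA. All libraries came from 1 clone of the human embryonic kidney line HEK293T, whose zinc finger transcription factor ZNF143 carries a degron tag, so controls and treated cells share the tagged allele. Treated cells received 50 nM dTAGV-1, a compound that recruits a ubiquitin ligase to the tag, for 30 minutes. Controls are called DMSO in their titles and treatment field, while the protocol text speaks of no treatment. Counts cover 8 control and 8 dTAGV-1 libraries, numbered replicates 9 to 16 in both groups. The other 16 of the 32 libraries in the labels, replicates 1 to 8, are represented by a list of 259926 peak summits with no value per library. Untagged cells given dTAGV-1 were not analysed here, so an effect of the compound itself and an effect of ZNF143 loss cannot be told apart. ZNF143 protein was not measured in these files, and the labels do not say that replicates came from separate cultures, so p-values measure the spread between libraries, which may be technical.

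Mitochondrial DNA is transcribed by a single-subunit RNA polymerase, POLRMT, which starts at its promoters with TFAM and TFB2M and elongates with TEFM. TFAM also coats and packages the mitochondrial genome, and its amount is known to track the number of genome copies. The helicase TWNK, the polymerase POLG with its accessory subunit POLG2, and the single-stranded DNA-binding protein SSBP1 copy the genome. MTERF1 binds a terminator downstream of the ribosomal RNA genes, and TFB1M, a relative of TFB2M, methylates the small mitochondrial ribosomal RNA. All of these proteins are encoded in the nucleus, and nuclear regulators such as NRF1 and the ETS factor GABP are known to act on several of their promoters. TFAM is also described as a target of ZNF143.

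The starts of these genes hold letters that resemble known binding sequences, and those that bear on ZNF143 are printed first because the treatment is meant to degrade that factor. The letters CCCANNATGC, where N is any base, were taken as the ZNF143 core, and CCCANNNTGC as a looser form that contains it. Both strands were searched in the strongest window of each gene. For SSBP1, which held no counts, this was the window with the stronger peak call of the authors. The core occurred in 1 of 10 windows, that of POLRMT, compared with 1.71% of all tested windows and 1.98% of tested windows at coding gene starts. The looser form occurred in 3 of 10, at TFAM, POLRMT and TFB1M, compared with 11.96% of tested windows and 10.9% of those at coding starts. Each stretch of 30 bases below is read from hg38, 5′ to 3′ in the direction of the core, with 12 bases before it and 8 after it, and capitals mark the match.
POLRMT, chr19:633625-633654, plus strand: cggaagtagactCCCAGGATGCagcggagg
TFAM, chr10:58385395-58385424, plus strand: gttagcagatttCCCATAGTGCctcgctag
TFB1M, chr6:155314629-155314658, minus strand: agccgccgaccaCCCAGCCTGCccttctcg
The match began 109 bp upstream of the canonical start of POLRMT, 3 bp upstream of that of TFAM and 162 bp upstream of that of TFB1M. In TFAM the letters were cccatagtgc, which fit the looser form but not the core. ACTACAA, the letters that stand just before the core in 1 class of ZNF143 sites, occurred in 0 of the 10 windows and in 3.83% of tested windows. A match of letters describes the sequence and does not show binding.

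The letters of NRF1 and ETS sites were found at more of these genes than the ZNF143 core. GCGCANGCGC, the NRF1 letters, occurred in the strongest window of 4 of 10 genes, against 1.22% of tested windows and 5.96% of those at coding starts. They are shown because NRF1 is a known regulator of this pathway, and capitals mark the match, read in the direction of the gene from the RefSeq promoters of GRCh38.p14, which held 9 of the 10 genes.
TFAM, chr10:58385337-58385366, plus strand: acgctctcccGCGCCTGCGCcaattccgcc
TFB1M, chr6:155314597-155314626, minus strand: gcaggacttaGCGCATGCGCtctcagcacg
POLRMT, chr19:633542-633571, minus strand: ggcggcgcggGCGCATGCGCAGGCGCgggc
POLG2, chr17:64497049-64497078, minus strand: cacctccgttGCGCCTGCGCcgtggcctct
The matches began 63 bp upstream of the start of TFAM, 132 bp upstream of that of TFB1M and 14 bp upstream of that of POLG2, while POLRMT held overlapping matches 24 bp and 18 bp upstream. CCGGAAG, the ETS letters, occurred in 7 of 10 genes (MTERF1, POLG2, POLRMT, SSBP1, TEFM, TFB1M and TWNK), against 3.66% of tested windows and 11.8% of those at coding starts. At TEFM and MTERF1, which lack the NRF1 letters in these windows, they lay 6 bp and 50 bp upstream of the start.
TEFM, chr17:30906227-30906255, minus strand: gcacgcaggaaCCGGAAGtcaatggagga
MTERF1, chr7:91880735-91880763, minus strand: gcgacccgaggCCGGAAGttagtcttttc
CCAAT occurred in 5 of 10 genes and GGGCGG in 8 of 10, against 32.4% and 65.8% of windows at coding starts.

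The promoter of POLRMT, the mitochondrial RNA polymerase, is printed over 250 bases because it alone held the ZNF143 core, and it also held all the other letters searched except ACTACAA. Capitals mark, from 5′ to 3′, GGGCGG on the opposite strand, CCAAT, the ZNF143 core on the opposite strand, CCGGAAG on the opposite strand and the overlapping NRF1 letters. The stretch ends 1 base before the canonical start.
POLRMT, chr19:633538-633787, minus strand: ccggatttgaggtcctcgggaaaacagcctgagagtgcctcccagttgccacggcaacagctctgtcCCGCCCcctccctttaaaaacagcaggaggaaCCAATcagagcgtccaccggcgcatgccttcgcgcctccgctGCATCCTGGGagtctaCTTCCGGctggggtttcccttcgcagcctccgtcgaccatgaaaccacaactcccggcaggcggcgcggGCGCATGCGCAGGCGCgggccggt
The TFAM promoter is printed for 185 bases, from 250 to 66 bases upstream of the canonical start, the part that precedes every annotated TFAM start. Its capitals mark GGGCGG on the strand of the gene and then on the opposite strand, and the NRF1 and looser ZNF143 letters of TFAM lie downstream of this stretch.
TFAM, chr10:58385160-58385344, plus strand: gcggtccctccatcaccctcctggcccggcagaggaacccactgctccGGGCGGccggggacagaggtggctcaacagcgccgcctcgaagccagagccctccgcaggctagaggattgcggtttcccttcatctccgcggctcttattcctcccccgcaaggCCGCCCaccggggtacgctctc

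The libraries differed in depth and in signal over background, which touches several values below. Counts per library ranged from 2275856 to 11418578 in the controls (median 9202408) and from 3373219 to 13671039 with dTAGV-1 (median 9255837). Control replicate 12 and dTAGV-1 replicates 12 and 11 had the fewest counts. The 10% of windows with the highest counts took 31.8% of counts in control replicate 12, 38.9% in dTAGV-1 replicate 12, 41.8% in dTAGV-1 replicate 11 and 45.8% in control replicate 11, against 48.1% to 49.6% in the other libraries. Control replicate 12 was the lowest control in 15 of the 21 tested member windows and in 8 of the 9 strongest windows per gene. As a check of the cell label, 6 of 6 genes of a HEK293 list had a window at a start (LHX1 at 0 counts), while 9 of 11 genes of blood, liver, skin and muscle had none. MYOD1, a muscle transcription factor, had a window with 7.01 CPM (counts scaled to the library total).

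In the controls the strongest window of each of the 9 counted genes spanned its start and was centred 34 to 179 bp upstream of it. Levels are given as log2 CPM, scaled by TMM after a prior count of 2 was added, and all windows have the same length, so that they can be compared between genes. TFB1M had the highest mean, 6.77 ± 0.56 (SD, n = 8), followed by POLG at 6.14 ± 0.37, TFAM at 5.29 ± 0.35 and MTERF1 at 5.08 ± 0.47. POLRMT followed at 4.36 ± 0.24, TFB2M at 4.32 ± 0.51 and POLG2 at 4.21 ± 0.48, and TWNK at 3.67 ± 0.19 and TEFM at 3.61 ± 0.45 were lowest. The order was clear in 3 steps, since TFB1M exceeded POLG, POLG exceeded TFAM and MTERF1 exceeded POLRMT in 8 of 8 control libraries. TFAM exceeded MTERF1 in 6 of 8 by 0.21, close to the SD of that difference within libraries, 0.20. POLRMT and TFB2M differed by 0.041 and TWNK and TEFM by 0.057, with the first higher in 4 of 8 libraries in both cases, so these neighbours did not differ beyond their spread. The next shares use the mean level over all 16 libraries of both groups, not the controls alone. Among windows at coding gene starts, TFB1M lay above 99.9% of them, POLG above 98.9%, TFAM above 93.8%, POLRMT above 80.7% and TEFM above 64.2%.

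**Figure D1:**
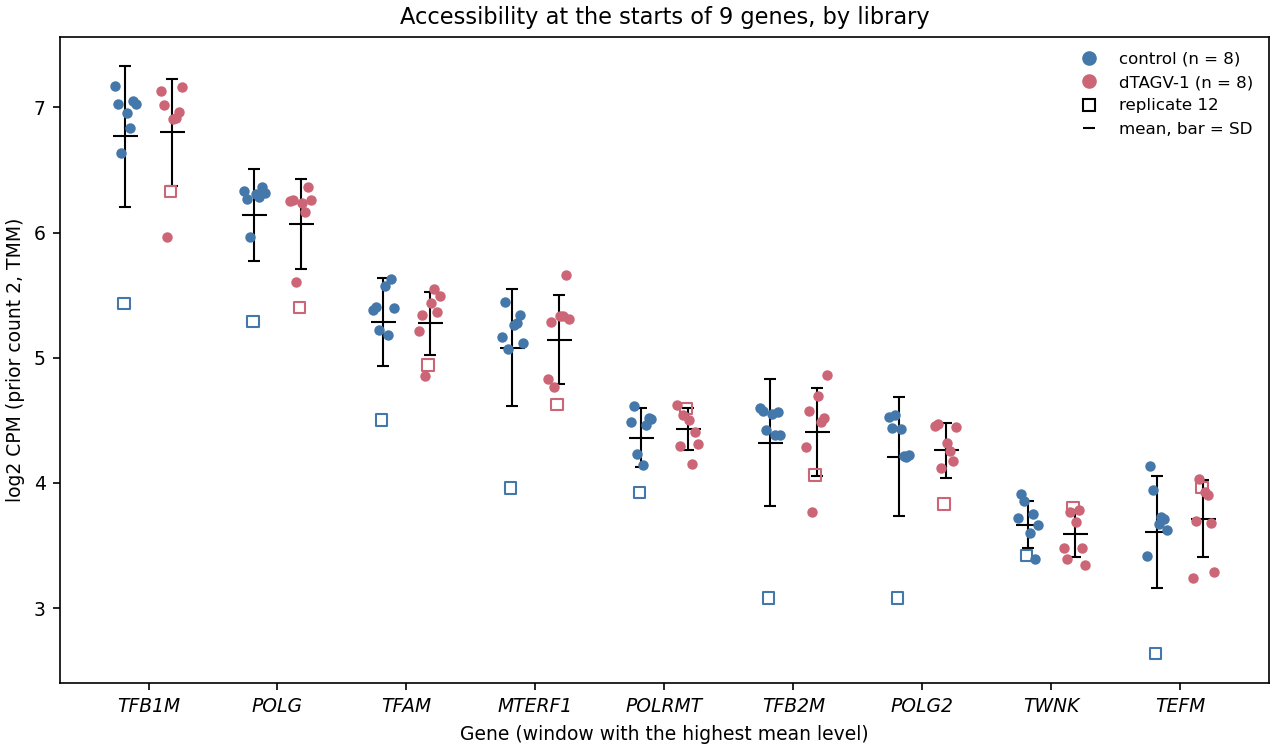
Log2 CPM of the strongest window of 9 genes, with 1 point per library for 8 control (blue) and 8 dTAGV-1 libraries (red), open squares for replicate 12, and bars for the mean and SD. The groups lie over each other at every gene, from TFB1M near 6.77 to TEFM near 3.61, and control replicate 12 sits below the other controls at most of them.

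The strongest window of each gene was chosen by its mean level, so lower levels in its other windows follow from that choice. Lower windows lay on both sides of the start. At TFAM the window on the start had a control mean of 5.29, the window 221 bp downstream, in the first coding exon, 4.05 ± 0.23, and the window 541 bp downstream, in an intron, 3.33 ± 0.37. TFB1M went from 6.77 to 3.98 ± 0.15 at 367 bp downstream and TFB2M from 4.32 to 1.62 ± 0.46 at 289 bp downstream. Upstream of POLG the level was nearly the same, with 6.14 in the window 78 bp upstream and 6.08 ± 0.33 in that 356 bp upstream, where the exon of the divergent transcript POLG-DT lies. The window further upstream was lower at other genes. It had 3.48 ± 0.22 at POLG2 (469 bp), 2.91 ± 0.26 at TEFM (338 bp) and 3.35 ± 0.17 at TWNK (275 bp). The windows on the start of these genes had 4.21, 3.61 and 3.67. Overlapping windows of 1 gene share counts and are not separate measurements. The overlap was 73 bp and 81 bp at TFAM, 160 bp at TWNK, 112 bp at TEFM and 6 bp at TFB2M. At POLG it was 123 bp between the upstream windows and 186 bp between the intron windows 3 and 4. In the separate summit list of replicates 1 to 8, which carries 1 value per summit and none per group, all 10 genes had a summit within 500 bp of the canonical start. The strongest lay upstream of the start in 10 of 10 genes, from 24 bp at TEFM to 475 bp at POLG2, and 101 bp upstream at TFAM.

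**Figure D2:**
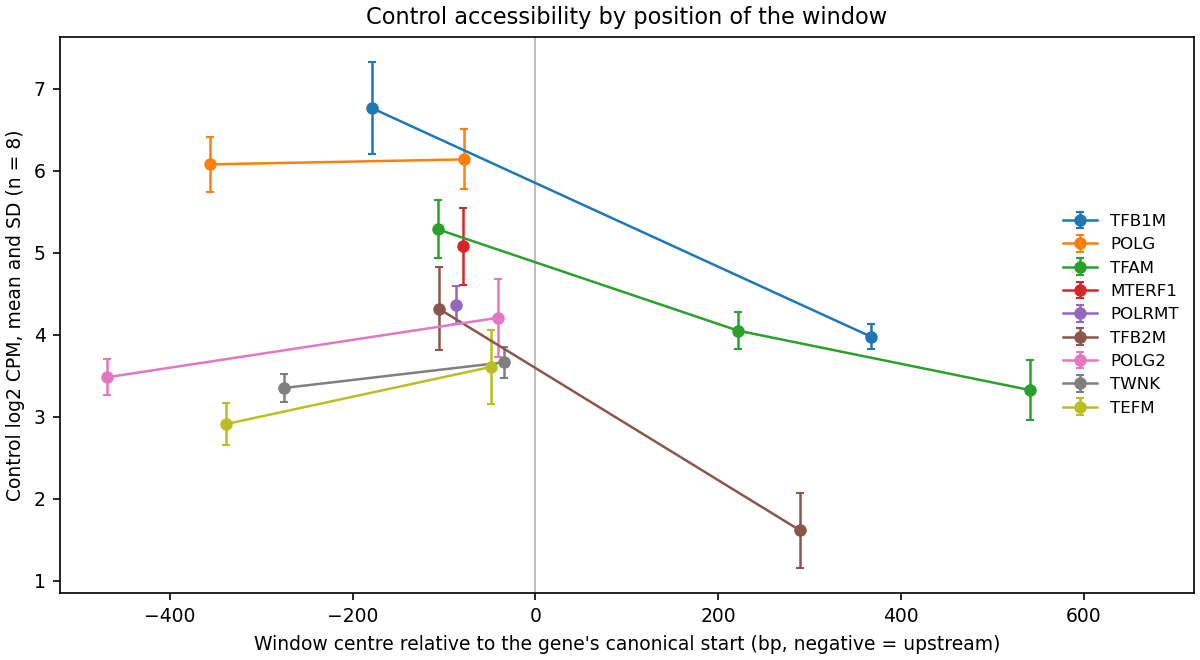
Control log2 CPM (mean and SD, n = 8) of the tested windows centred no more than 541 bp from the canonical start, against the distance of the window centre from that start, with a line joining windows of 1 gene. TFAM declines from 5.29 to 3.33 into the gene, while POLG stays near 6.1 over its upstream side.

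Across the pathway, none of the 21 tested windows passed the test for a change after 30 minutes of dTAGV-1, in either direction. In the quasi-likelihood fit of edgeR, adjusted by Benjamini-Hochberg over 185040 windows, 0 were called lower and 0 higher at 0.05, and all 21 adjusted p-values were 1.00. Over all tested windows 0.215% were called, 0.213% lower and 0.00108% higher, and among tested windows at coding gene starts 0.634% were called. At an unadjusted p under 0.05 there were 0 member windows by edgeR, where 2.85% of all windows were, and 0 by DESeq2, where 2.92% were. DESeq2 called 0 members, against 0.275% of all windows (0.272% lower and 0.00216% higher). With the replicate number as a block, 0 members were called, against 0.407% of all windows (0.401% lower and 0.00594% higher), and 1 had an unadjusted p under 0.05, against 4.58%. Leaving out replicates 11 and 12 of both groups also gave 0 calls among members. Among the strongest windows the smallest unadjusted p by edgeR was 0.469, at TWNK. The log2 fold change (dTAGV-1 minus control) was below 0 in 10 of the 21 windows and above 0 in 11, with a median of 0.0017, against a median of 0.0077 over all tested windows, 48.2% of which were below 0. The values ran from -0.16 to 0.27, with standard errors of 0.13 to 0.25, and the groups overlapped in all 21 windows. They did not overlap in 0.0746% of all tested windows.

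The precision sets what these counts can show. Of windows simulated over 185040 windows with a log2 change of 0.5, the test recovered 12 of 100, and of those with a change of 1 it recovered 84 of 100. The changes were placed only in windows at or above the median abundance, so recovery in weaker windows was not measured. The simulated libraries did not differ in signal over background, as the real ones did. On these figures a change of the smaller size would usually be missed by the call, and the intervals are more informative. For the strongest windows of the 9 genes, the 95% intervals together ran from 75.8% to 129% of the control level. These intervals and the simulation used the fit without the replicate block. With the block, the 95% interval of the log2 fold change was -0.20 to 0.13 in the strongest window of TFAM. In that of TFB1M it was -0.16 to 0.17. The windows called lower elsewhere had a median log2 fold change of -0.95, with the value nearest 0 at -0.558. Those windows were selected by the test itself. With all 16 libraries the lower interval bound lay above both values in 21 of 21 member windows. In POLG window 5, in an intron, it did so narrowly, at -0.554. Without replicates 11 and 12 the bounds were not compared, and POLG windows 3 and 4 gave fold changes of -0.37 and -0.28.

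TFAM, the packaging protein and initiation factor, was measured at chr10:58385103-58385503, a window over its start that is intergenic at its centre. Control libraries had a lowest value of 4.50, a median of 5.39 and a highest of 5.63 log2 CPM, and dTAGV-1 libraries 4.85, 5.35 and 5.55. The low values were control replicate 12, with 60 counts, and dTAGV-1 replicate 11, and the groups overlapped throughout. The log2 fold change was -0.04 (SE 0.15, 95% interval -0.33 to 0.26), which is 97.6% of control with an interval from 79.4% to 120%. dTAGV-1 was lower in 5 of 8 pairs of the same replicate number, and the value was -0.04 without replicates 11 and 12 and -0.11 without control replicate 12. The window in the coding exon, chr10:58385431-58385831, gave 0.06 (SE 0.13, 95% interval -0.21 to 0.32).

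The window in the TFAM intron, chr10:58385751-58386151, had the highest fold change of all members and is described because its values stood out. Its lowest, median and highest values were 2.55, 3.43 and 3.75 log2 CPM in the controls and 2.90, 3.68 and 4.01 with dTAGV-1. The dTAGV-1 library was the higher in 6 of 8 pairs, 3 dTAGV-1 libraries exceeded the highest control, and the ranges overlapped. dTAGV-1 against control gave a log2 fold change of 0.27 (SE 0.15, 95% interval -0.03 to 0.56). With the replicate block its unadjusted p was 0.0185 and its adjusted p 0.953, and without replicates 11 and 12 it was 0.33 with an adjusted p of 0.677, so it passed no threshold over all windows.

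**Figure D3:**
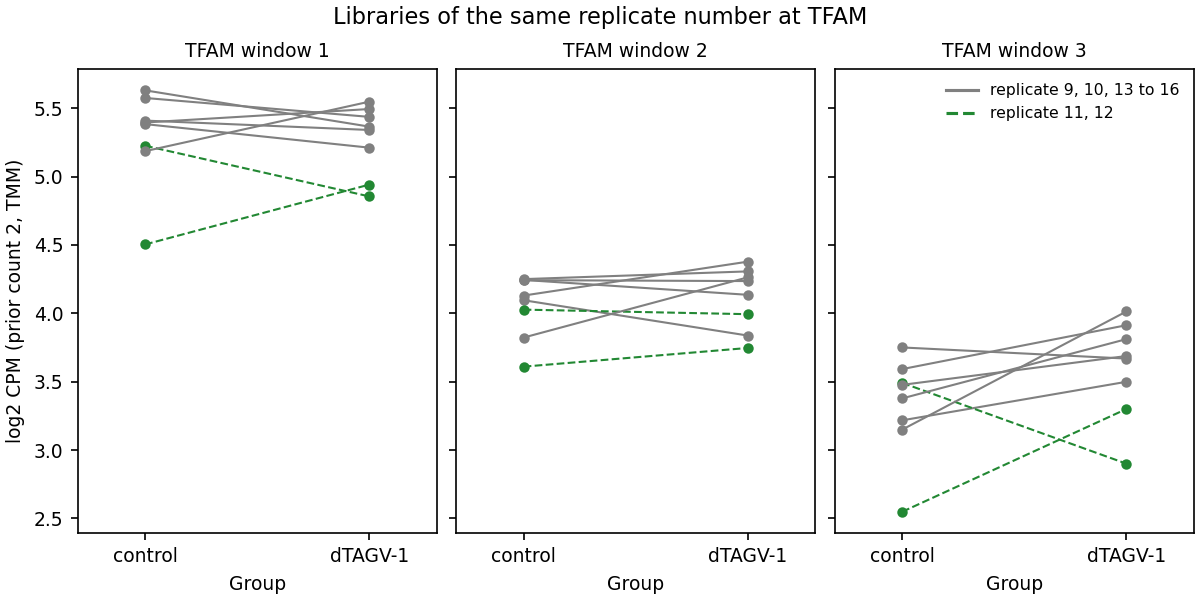
Log2 CPM of the TFAM windows on the start (window 1), in the coding exon (window 2) and in the intron (window 3), with a line from the control to the dTAGV-1 library of each replicate number and dashed green lines for replicates 11 and 12. Lines run both ways in windows 1 and 2, and 6 of 8 rise in window 3.

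POLRMT, the polymerase, was measured by 1 window, chr19:633424-633824, which holds the ZNF143 core printed above. In controls the level ran from 3.93 to 4.61 log2 CPM with a median of 4.47, and with dTAGV-1 from 4.15 to 4.62 with a median of 4.46. The medians were nearly equal, with dTAGV-1 lower in 4 of 8 pairs. On the log2 scale the change was 0.04 (SE 0.13, 95% interval -0.23 to 0.31), or 103% of control with an interval from 85.2% to 124%, and -0.08 without replicates 11 and 12. Of all 3169 tested windows with the core letters, 75 were called lower, or 2.37%, against 0.213% of all tested windows, and 19.0% of the windows called lower held them, against 1.71% of tested windows.

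TFB2M, the initiation factor that melts the promoter with POLRMT, shares its window with the start of the neighbouring gene CNST at chr1:246566167-246566567. Control libraries had a lowest value of 3.08, a median of 4.49 and a highest of 4.60 log2 CPM, and dTAGV-1 libraries 3.77, 4.50 and 4.87. The wide control range came from replicate 12, which held 22 counts, and 2 dTAGV-1 libraries exceeded the highest control. The fitted difference (log2) was 0.05 (SE 0.16, 95% interval -0.26 to 0.36). In the weak window in the coding exon the value was 0.15 (SE 0.20).

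TEFM, the elongation factor, shares its window at chr17:30906087-30906487 with the start of ADAP2. Its lowest, median and highest values were 2.64, 3.69 and 4.13 log2 CPM in the controls and 3.24, 3.80 and 4.03 with dTAGV-1. All dTAGV-1 values lay inside the control range. The log2 fold change was 0.04 (SE 0.15, 95% interval -0.26 to 0.34) and -0.08 without replicates 11 and 12.

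MTERF1, the terminator-binding protein, was measured at chr7:91880581-91880981, and a noncoding gene starts within 500 bp of it. In controls the level ran from 3.96 to 5.45 log2 CPM with a median of 5.22, and with dTAGV-1 from 4.63 to 5.66 with a median of 5.30. Replicate 12 was the lowest library of both groups, with 41 counts in the control. dTAGV-1 against control gave a log2 fold change of 0.04 (SE 0.16, 95% interval -0.28 to 0.36).

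TFB1M, the ribosomal RNA methyltransferase, had the strongest window, chr6:155314463-155314863. Control libraries had a lowest value of 5.43, a median of 6.99 and a highest of 7.17 log2 CPM, and dTAGV-1 libraries 5.96, 6.94 and 7.17. Both groups thus had nearly the same median and maximum and 1 or more low libraries among replicates 11 and 12. On the log2 scale the change was 0.0017 (SE 0.18, 95% interval -0.37 to 0.37), and it was -0.12 without control replicate 12. In the noncoding exon downstream, chr6:155313917-155314317, 4 dTAGV-1 libraries, among them replicates 11 and 12, were below the lowest control. The log2 fold change there was -0.14 (SE 0.13), and it was -0.072 without replicates 11 and 12.

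POLG, the catalytic subunit of the replicative polymerase, was measured at chr15:89334702-89335102, between its start and that of POLG-DT. Its lowest, median and highest values were 5.29, 6.30 and 6.36 log2 CPM in the controls and 5.40, 6.24 and 6.37 with dTAGV-1. Replicate 12 was the lowest library in both groups, and dTAGV-1 was lower in 6 of 8 pairs. The fitted difference (log2) was -0.08 (SE 0.16, 95% interval -0.40 to 0.25), or 94.9% of control with an interval from 75.8% to 119%. It was -0.16 without control replicate 12 and -0.0019 without dTAGV-1 replicate 12. The overlapping window further upstream gave 0.03. The remaining 3 POLG windows, 3 to 5, lay in introns, centred 452, 237 and 249 bp from the nearest annotated POLG start. MIR6766 also starts within 500 bp of window 5. The 3 windows held 9 to 39 counts per library and had fold changes of -0.0082, -0.05 and -0.10. Without replicates 11 and 12 these were -0.37, -0.28 and -0.12.

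POLG2, the accessory subunit, was measured at chr17:64496895-64497295. In controls the level ran from 3.08 to 4.54 log2 CPM with a median of 4.33, and with dTAGV-1 from 3.83 to 4.47 with a median of 4.29. All dTAGV-1 values lay inside the control range, whose low end was replicate 12 with 22 counts. The log2 fold change was -0.008 (SE 0.15, 95% interval -0.30 to 0.28). The window 469 bp upstream, chr17:64497323-64497723, had the lowest fold change of all members with all libraries, -0.16 (SE 0.14, 95% interval -0.45 to 0.12), with dTAGV-1 lower in 5 of 8 pairs. Without control replicate 10 it was -0.08 and without replicates 11 and 12 it was -0.091, and in neither case was it the lowest of the members. A weak window in an intron, at the pseudogene ATP5MFP4, gave 0.19 (SE 0.25).

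TWNK, the helicase, shares its window at chr10:100987309-100987709 with the start of MRPL43, a mitochondrial ribosomal protein gene, and the window centre lies in an untranslated exon of both. Control libraries had a lowest value of 3.39, a median of 3.69 and a highest of 3.91 log2 CPM, and dTAGV-1 libraries 3.35, 3.59 and 3.80. This was the strongest window of a gene in which the lowest control was not replicate 12 but replicate 15. dTAGV-1 against control gave a log2 fold change of -0.10 (SE 0.13, 95% interval -0.36 to 0.17), or 93.6% of control, and -0.15 without replicates 11 and 12.

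SSBP1, the single-stranded DNA-binding protein, could not be compared. Its windows chr7:141738126-141738526 and chr7:141737867-141738267 lie over its start and in the antisense gene WEE2-AS1, and held 0 counts in all 16 libraries. The authors' peak calling gave them -log10 q values of 708.56 and 596.31, and the summit list of replicates 1 to 8 has a summit 265 bp upstream of the start with a score of 655.622, at or above 98.4% of all summits. Of all windows in the table, 1.33%, or 2816, were at 0 in every library. The whole sequence of both SSBP1 windows also occurs on 1 alternate contig of hg38, which was true of 0 of the other 21 member windows. The central 32 bases occurred on an alternate contig in 75.5% of the windows at 0 and in 4.25% of the other windows. Whether the repeated sequence led to the zeros was not tested, and a count of 0 here does not describe closed chromatin.

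**Figure D4:**
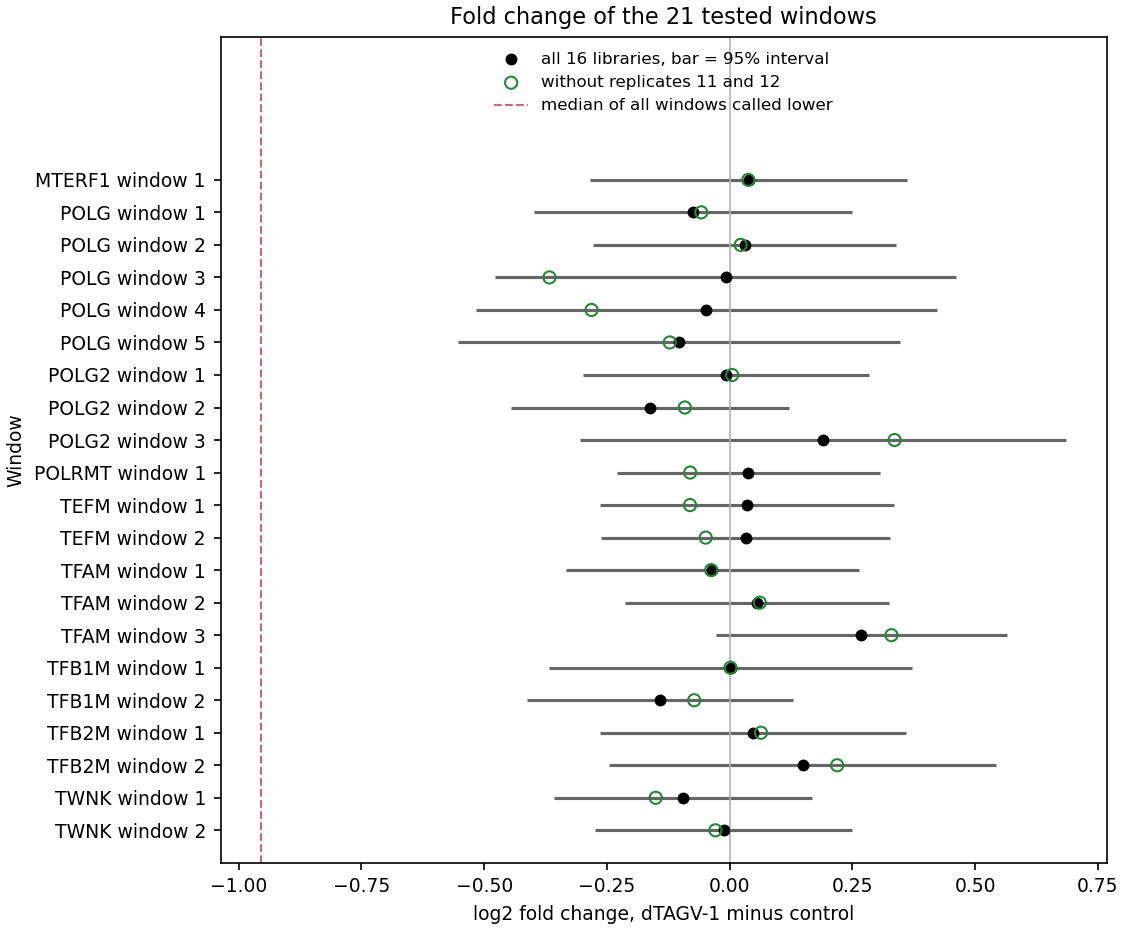
Log2 fold change (dTAGV-1 minus control) of the 21 tested windows, with black points and 95% intervals from all 16 libraries, open green circles without replicates 11 and 12, and a dashed line at the median of all windows called lower, -0.95. All values lie between -0.16 and 0.27 with all libraries, and no interval reaches the dashed line.

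The window most like that of TFAM was sought among 31681 other windows at coding gene starts by the root mean square difference in log2 CPM over the 16 libraries. FKBP15 (with SLC31A1), DNAJB4 and GNPAT (with C1orf131) came nearest, at 0.111, 0.112 and 0.113, where the median over all windows compared was 2.16. The measure reads level and library profile together, and libraries share depth and background, so it describes a common profile of signal.

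Beyond the 10 genes, 43 other genes of mitochondrial genome upkeep, RNA processing and nuclear control had 93 tested windows. In edgeR, 0 were called lower and 0 higher, against 0.215% of all windows, while 5 of 93 had an unadjusted p under 0.05, against 2.85% of all windows. The fold change was below 0 in 50 of the 93 windows, with a median of -0.0067. The 6 nuclear regulators had 15 windows, the 22 genes of replication, repair and nucleotide supply 43, and the 15 genes of RNA processing 35. With the replicate block, 2 windows were called lower and 0 higher, against 0.407% of all windows, and DESeq2 called 1.

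The window called by both was that of PPRC1, a coactivator of the PGC-1 family that acts with NRF1, at chr10:102132746-102133146. Its lowest, median and highest values were 4.24, 5.61 and 5.71 log2 CPM in the controls and 4.51, 4.95 and 5.09 with dTAGV-1. The lowest value was control replicate 12, and dTAGV-1 was lower in 7 of 8 pairs. On the log2 scale the change was -0.63 (SE 0.16, edgeR adjusted p = 0.0788). It was -0.64 with the replicate block (edgeR adjusted p = 1.09e-07) and its adjusted p was 0.0103 in DESeq2. Leaving out control replicate 12 gave -0.73 (edgeR adjusted p = 8.36e-06), and leaving out replicates 11 and 12 of both groups gave -0.65 (edgeR adjusted p = 6.03e-10). Over 24 settings it was called in 6, with adjusted p-values from 6.03e-10 to 0.335.

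PRORP, the catalytic subunit of mitochondrial RNase P, was the other window called with the block, at chr14:35122368-35122768, where PPP2R3C also starts. In controls the level ran from 3.52 to 4.38 log2 CPM with a median of 4.12, and with dTAGV-1 from 3.42 to 4.05 with a median of 3.63. dTAGV-1 was lower in 7 of 8 pairs, and 3 dTAGV-1 libraries were below the lowest control. The fitted difference (log2) was -0.42 (SE 0.14, edgeR adjusted p = 0.885), and it was -0.43 with the block (edgeR adjusted p = 0.00774). SUCLG1, a subunit of succinyl-CoA ligase, gave -0.41 in the window chr2:84459370-84459770 (SE 0.14, edgeR unadjusted p of 0.00661), with dTAGV-1 lower in 7 of 8 pairs. That window was not called with the block (edgeR adjusted p = 0.186). The other SUCLG1 windows gave 0.06 (SE 0.14) and 0.28 (SE 0.21). Among fold changes above 0, PIF1, a helicase, gave 0.41 in the weak window chr15:64825183-64825583 (SE 0.17, edgeR unadjusted p of 0.0196). The stronger PIF1 window gave 0.05 (SE 0.13). MTPAP, the mitochondrial poly(A) polymerase, gave 0.40 in the window chr10:30374335-30374735 (SE 0.18, edgeR unadjusted p of 0.0326), where GOLGA2P6 also starts. The other MTPAP windows gave -0.13 (SE 0.16) and 0.19 (SE 0.26). None of these windows was called.

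The ZNF143 core occurred in 3 of these 93 windows, at PRORP, SUCLG1 and GABPA, a subunit of GABP. They are printed for comparison with the member sites, in the direction of the core, with capitals for the match.
PRORP, chr14:35122528-35122557, minus strand: gaaactacagtgCCCACGATGCaccgcgcc
SUCLG1, chr2:84459525-84459554, minus strand: cagactacattgCCCACAATGCcacgcgct
GABPA, chr21:25734944-25734973, minus strand: ctgaaacggcggCCCATAATGCattgcgat
GABPA gave a log2 fold change of -0.04 (SE 0.16), nearer to POLRMT than to the other core windows. The PPRC1 window holds ACTACAA 49 bp from its centre and no exact match to the core letters. Only exact ACTACAA was searched. The bases printed before the core hold the shorter run actaca at PRORP and SUCLG1, and not at GABPA. That run was picked out after the values were seen. Its share in other windows was not counted, so no conclusion is drawn from it. TOP3A, a topoisomerase, holds ACTACAA as well and gave -0.10 (SE 0.14). These windows were set beside each other after their values were seen, and no test was made of the letters against the change.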

How the data were processed

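The deposited table holds whole-number counts per 401 bp window for 16 ATAC-seq libraries, not normalized, beside a -log10 q from peak calling for every window, per the file headers. The deposited summit list gives a -log10 score per summit from the authors' peak calling. Cutadapt 1.8.1, Bowtie2 2.4.4, SAMtools 1.9 and hg38 are named in the submitters' processing notes. The peak caller, the counting tool and any shift of reads for Tn5 are not given in the sources used here, and such a shift is small beside the window length.

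Member windows were found by coordinates. The fit over all windows used edgeR 4.0.16 in R 4.3.3 with filterByExpr, TMM scaling, the quasi-likelihood test without a covariate, and Benjamini-Hochberg adjustment at 0.05. Standard errors and 95% intervals were derived from the fitted statistic. With library totals from 2275856 to 13671039, depth limits the precision most in the weak windows, which hold under 40 counts per library in several cases. Alternatives were other scalings, no filter, DESeq2 1.42.0, the replicate number as a block, each library left out, and, chosen after seeing the data, replicates 11 and 12 left out. Replicate numbers come from the labels, and libraries of the same number deviated together from their group means (correlations of 0.109 to 0.315 in 8 pairs, all over 0.1), so they were treated as pairs in the block. In 7 of 8 the control correlated most with the dTAGV-1 library of its own number. The exception was replicate 16 (0.116). The test was tested on simulated data. All 10 genes are named, with the window of highest mean level leading, or for SSBP1 the window with the higher -log10 q. Of the wider list, called genes and the 2 smallest p-values in each direction are named, and of the promoters most like that of TFAM, the nearest 3. SUCLG1, GABPA and TOP3A of the wider list fall outside this rule. Their named windows hold the ZNF143 core or ACTACAA. The members, lists and rules were chosen with earlier results of these data known. Sequences were read from hg38 and from RefSeq promoters, and letters were searched on both strands of the 401 bp window. The value of 1 marker gene is not reported here.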

Additional observations from a re-analysis of the deposited data

Results flagged for a closer look

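Control replicate 12 lay far below the other 7 controls in 7 of the 42 groups of 8 libraries examined (21 windows in each of 2 groups), by the ratio of its gap to the range of the group. About 1 in 20 such groups is expected by chance. That rate cannot be set against the 7, because the groups come from the same 16 libraries and are not independent. The windows of POLG among them also overlap. The windows were the leading ones of TFAM at 4.50 log2 CPM, MTERF1 at 3.96, POLG at 5.29, POLG2 at 3.08, TFB1M at 5.43 and TFB2M at 3.08, and the upstream window of POLG at 5.33. The other controls ran from 5.19 to 5.63 at TFAM, 5.07 to 5.45 at MTERF1, 5.97 to 6.36 at POLG, 4.21 to 4.54 at POLG2, 6.64 to 7.17 at TFB1M, 4.38 to 4.60 at TFB2M and 5.93 to 6.35 in the upstream window of POLG. This library had the fewest counts, 2275856, and the lowest share of counts in the 10% of windows with the highest counts, 31.8%. Its part in these values was not tested, and the fold changes without it are among the ranges given for single libraries left out.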

How the results depend on the processing

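Under 23 alternatives per tested window, 0 of 483 member values passed the threshold. The count of called members was 0 throughout, also for starts within 250 bp or 1000 bp. Of the 483 values, 424 kept their sign and 59 turned it, with 8 of 21 windows on 1 side of 0 throughout, and all values lay between -0.37 and 0.34. Turned values were, for DESeq2 and library totals, 0.038 and 0.013 in the POLG intron (window 3), for the replicate block 0.00038 at POLG2, for upper-quartile scaling -0.0068 at TFB1M, and without replicates 11 and 12 0.005 at POLG2, -0.08 at POLRMT, and -0.081 and -0.049 in TEFM windows 1 and 2. Leaving out each library in turn gave ranges across 0: -0.053 to 0.096 at MTERF1, -0.047 to 0.089 in POLG window 2, -0.19 to 0.11, -0.19 to 0.029 and -0.18 to 0.03 in POLG windows 3, 4 and 5, -0.091 to 0.035 at POLG2, -0.011 to 0.076 at POLRMT, -0.038 to 0.12 and -0.052 to 0.091 in TEFM windows 1 and 2, -0.11 to 0.015 at TFAM, -0.12 to 0.091 at TFB1M, -0.041 to 0.12 at TFB2M and -0.043 to 0.045 in TWNK window 2. Ranges on 1 side of 0 included -0.16 to -0.0019 in POLG window 1 and -0.24 to -0.08 in POLG2 window 2. The cause was not tested.

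Of the wider list, 1 window was called with DESeq2, library totals or upper-quartile scaling, 2 with the replicate block and 2 without replicates 11 and 12, and 0 to 1 with each library left out (1 without control replicate 12). Over all windows, 742 were called lower with the block, 767 without replicates 11 and 12, and 318 to 627 with each library left out (627 without control replicate 12), against 395. Higher calls numbered 4 with DESeq2, 11 with the block, 14 without replicates 11 and 12, and 0 to 5 with each library left out, against 2. The block changed no other call named here. A prior count of 0.5 moved control levels by at most 0.118.

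Depth limits the smaller changes, and simulated log2 changes of 0.5 were recovered in 12 of 100 windows at or above the median abundance. The leading windows shared with CNST, ADAP2, POLG-DT and MRPL43 cannot be assigned to 1 gene. SSBP1 has no value.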
